A study of Mus musculus with 24 samples.

Results

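The genes for 7 fatty acid elongases and desaturases, Fads1, Fads2, Elovl1, Elovl2, Elovl3, Elovl5 and Scd2, were followed in hepatocytes of young and old mice fed a normal diet (ND) or a high-fat diet (HFD). They were chosen by gene symbol from the deposited table of read counts, in which they are 7 of 55421 genes, and all 7 had enough counts to be tested. The study asked how age changes the response of the liver to HFD. It isolated hepatocytes by a collagenase perfusion of the liver in 2 steps and sequenced their polyA RNA. The 24 male mice formed 4 groups of 6, named young ND, old ND, young HFD and old HFD. By the sample labels, young ND and young HFD mice were C57BL/6N and 6 months old, and old ND and old HFD mice were C57BL/6J and 24 months old. Age and substrain therefore cannot be told apart in any comparison of old with young mice, and the paper's text gives other ages and no substrain. HFD supplied 60% of energy from fat for 9 weeks, and ND was a chow in the labels and is described differently in the paper. The sample titles give 2 batches, each with 3 mice of every group except old ND, which had 2 in batch 1 and 4 in batch 2.

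Elongases of the Elovl family add carbon pairs to fatty acids at the endoplasmic reticulum, and desaturases place double bonds in them. Fads2 and Fads1, acting in turn with Elovl5 and Elovl2, convert the plant fatty acids linoleic and alpha-linolenic acid into arachidonic acid and docosahexaenoic acid, and the liver is a main site of this conversion. Elovl1 and Elovl3 lengthen saturated and monounsaturated fatty acids, and Scd2 is a stearoyl-CoA desaturase that is abundant in brain, whereas Scd1 is the form that dominates in adult liver.

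In the GENCODE annotation of GRCm38, Fads2 (ENSMUSG00000024665) lies on chromosome 19 from 10062765 to 10101746 on the minus strand, 81141 bases from Fads1 (ENSMUSG00000010663) on the plus strand from 10182888 to 10196877. Scd2 (ENSMUSG00000025203, from 44293674 to 44306864) and Elovl3 (ENSMUSG00000038754, from 46131897 to 46135694) are on the plus strand of the same chromosome. Elovl5 (ENSMUSG00000032349) is on chromosome 9 from 77917364 to 77984519, Elovl1 (ENSMUSG00000006390) on chromosome 4 from 118428093 to 118432953, and Elovl2 (ENSMUSG00000021364) on chromosome 13 from 41182381 to 41220405. RefSeq promoter windows of GRCm38.p6, which run from 250 bases before to 50 after a transcription start, were at hand for 4 of the 7 genes (Fads2, Elovl1, Elovl2 and Elovl5). The windows of Fads2 (chr19:10101454-10101753, minus strand), the gene of the polyunsaturated pathway that was called on HFD, and Elovl5 (chr9:77917115-77917414, plus strand), the elongase that acts on its products, are shown. The RefSeq start of Fads2 lies 243 bases inside the GENCODE gene, so the window covers the start of both models. Capitals mark matches to the motifs searched:

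Fads2: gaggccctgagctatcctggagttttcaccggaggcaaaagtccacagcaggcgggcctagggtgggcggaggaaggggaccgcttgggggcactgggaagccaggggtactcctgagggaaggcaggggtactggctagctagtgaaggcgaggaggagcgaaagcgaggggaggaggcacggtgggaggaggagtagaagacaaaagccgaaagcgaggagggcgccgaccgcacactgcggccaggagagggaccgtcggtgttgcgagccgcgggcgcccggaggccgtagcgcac

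Elovl5: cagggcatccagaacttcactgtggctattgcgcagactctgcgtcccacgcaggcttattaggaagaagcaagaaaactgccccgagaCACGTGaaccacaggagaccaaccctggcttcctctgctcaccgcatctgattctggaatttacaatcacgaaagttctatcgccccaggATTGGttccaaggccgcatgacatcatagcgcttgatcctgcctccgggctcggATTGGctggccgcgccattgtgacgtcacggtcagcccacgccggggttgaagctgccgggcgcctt

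The motifs, sought on both strands, were the sterol element bound by SREBP proteins (TCACNCCAC), the DR1 and DR4 elements (AGGTCA repeated with 1 or 4 bases between), the E-box CACGTG and the CCAAT box. Elovl5 held an E-box whose first base is at position -161 and CCAAT boxes at -71 and -17, counted from the transcription start, and Elovl1 held a CCAAT box at -35. No match to any of the 5 motifs was found in the windows of Fads2 or Elovl2. Of 25429 promoter windows of genes in the table, 7.59% held the E-box, 37.6% the CCAAT box, 1.24% the sterol element, 0.0472% the DR1 repeat and 0.0157% the DR4 repeat.

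Total counts per mouse ran from 9200332 to 22185069, and every old HFD mouse (at most 13517632) was below all mice of the other groups. All 10 hepatocyte markers checked, such as Alb and Ttr, were detected in each group, and their summed level was 77962 to 159045 CPM (counts scaled to library size by the TMM method) in 23 mice. Old ND replicate 4 stood apart, with 44492 CPM of hepatocyte markers and 1448 CPM summed over 11 macrophage markers such as Clec4f and C1qa. The macrophage sum was 958 CPM in old ND replicate 3, 737 in old HFD replicate 6 and 567 in old HFD replicate 4, and at most 229 CPM in the other 20 mice. With age on ND 11 of 11 macrophage markers rose, as did 8 of 9 stellate cell, 6 of 9 sinusoidal endothelial, 4 of 6 tested lymphocyte and 3 of 3 tested neutrophil markers, and 0 of 2 tested cholangiocyte markers. The neutrophil marker Ly6g was at 0 in every mouse. In young mice the macrophage sum was 1.95 to 88.1 CPM on ND (median 28) and 16.3 to 229 CPM on HFD (median 116). The median log2 fold change of the markers tested was 2.21 for macrophages, 1.88 for lymphocytes, 1.68 for stellate and 1.41 for endothelial cells, and HFD in young mice called 1 macrophage, 1 endothelial and 2 stellate cell markers higher. The part of these cells in the differences between young ND and young HFD was not tested. Calls were fewer in the remaining comparisons, with 2 hepatocyte markers higher on HFD in old mice and 1 neutrophil marker higher with age on HFD. Fits without the 4 mice of highest macrophage sum, all of them old, an alternative chosen after the data were seen, called 1074, 401, 94, 94 and 0 genes for HFD in young mice, HFD in old mice, age on ND, age on HFD and the interaction, where all 24 mice gave 475, 409, 1155, 304 and 0. The value of each call of the 7 genes without them is given beside it. Genes were called by edgeR's quasi-likelihood test of all 24 mice with batch in the model, at a Benjamini-Hochberg adjusted p under 0.05 over 13583 genes.

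On the deposited FPKM scale, Elovl3 was the highest of the 7 in young ND (median 277 FPKM, range 105 to 357). The values follow the length of the whole gene, introns included, and not that of the transcript. Elovl5, with a gene of 67156 bases, had 11.2 FPKM at a median of 750 CPM. Elovl3, with 3798 bases, had 277 FPKM at a median of 877 CPM. The order of genes on this scale is therefore not an order of mRNA abundance. Fads1 came next in FPKM (median 42.6), then Elovl2 (20.1), Fads2 (14.2), Elovl5 (11.2) and Elovl1 (8.83), and Scd2 was lowest by far (0.146). Medians in CPM gave another order. Elovl2 (758) and Elovl5 (750) were above Fads1 (581) and Fads2 (562), and Elovl1 was at 37.2. The FPKM ranges of neighbours in the FPKM order overlapped from Elovl2 through Elovl1. They did not overlap between Elovl3 and Fads1, between Fads1 and Elovl2, or between Elovl1 and Scd2. In the other 3 groups Elovl3 still had the highest median FPKM, 81.3 in old ND, 65.0 in young HFD and 48.8 in old HFD, but its range overlapped that of Fads1. Its medians there in CPM were 294, 239 and 184, below those of Fads1 (559, 704 and 587). Fads2 stood above Elovl2 by median in both HFD groups (25.4 against 20.4 FPKM in young and 19.1 against 18.7 in old mice) and below it in both ND groups, with overlapping ranges in all 4. Scd2 had the lowest median in every group and did not overlap Elovl1 in FPKM in any. In CPM the highest old ND mouse for Scd2 (42.8) was above the lowest for Elovl1 (28.4). Scd1, which is not among the 7, had a median of 1033 FPKM in young ND, so the Scd2 level is a trace beside its neighbour 87590 bases away.

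**Figure D1:**
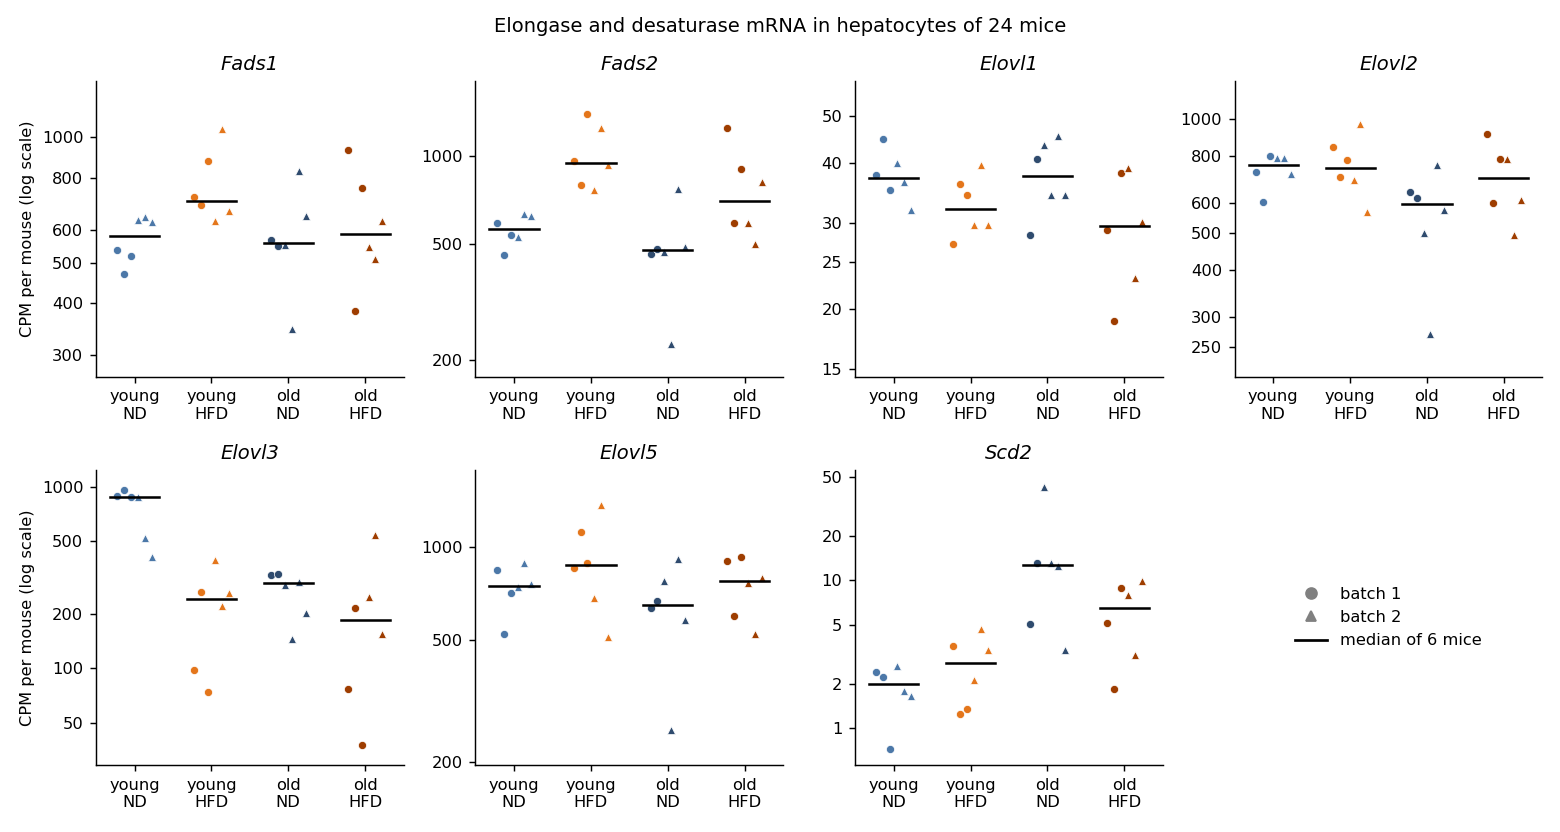
Level of each gene in every mouse, in CPM on a log axis, by group. Circles are batch 1, triangles batch 2 and lines the median of 6 mice. Fads2 in young HFD sits wholly above young ND (767 to 1395 against 458 to 631 CPM), Elovl3 is highest in young ND, and Scd2 is highest in old ND.

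HFD in young mice passed the test for 2 of the 7 genes, Fads2 (higher) and Elovl3 (lower), in a comparison where 3.5% of all genes tested were called, 1.91% higher and 1.59% lower. Fads2, which inserts the first double bond of the polyunsaturated pathway, had 458 to 631 CPM in young ND (median 562, n = 6) and from 767 to 1395 CPM in young HFD (median 945). Every young HFD mouse lay above every young ND mouse, as it did for 1.77% of all genes tested. The log2 fold change was 0.85 (standard error, SE, 0.23, edgeR adjusted p = 0.0419), a 1.80-fold rise. It was 0.99 in batch 1 alone and 0.75 in batch 2 alone, where neither passed the test (edgeR adjusted p = 0.114 and 0.616), and 0.87 with an edgeR adjusted p of 0.0134 without the 4 mice of highest macrophage markers. The call lay close to the threshold. It was lost by edgeR without batch (log2 fold change 0.86, edgeR adjusted p = 0.0635) and in the fits that left out any single young ND mouse, young HFD replicate 1, 3, 5 or 6, or old ND replicate 1, with log2 fold changes of 0.75 to 0.91 and edgeR adjusted p of 0.0516 to 0.106.

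In old mice Fads2 spanned 227 to 769 CPM on ND (median 475) and 500 to 1246 CPM on HFD (median 704). The groups overlapped, with 3 of 6 old HFD mice above the highest old ND mouse. The log2 fold change of 0.65 (SE 0.23, 95% interval 0.17 to 1.14) had an edgeR adjusted p of 0.108, and DESeq2 gave 0.67 with an adjusted p of 0.0382. None of the 7 genes passed edgeR's test for HFD in old mice, where 3.01% of genes were called, 1.37% higher and 1.64% lower. The difference between the diet effects of old and young mice on Fads2 was -0.20 (95% interval -0.87 to 0.48, edgeR adjusted p = 0.884), so a difference in response with age was not detected and one of moderate size in either direction is within the interval. Age itself gave Fads2 log2 fold changes of -0.20 on ND and -0.40 on HFD (edgeR adjusted p = 0.662 and 0.321).

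Fads1, which inserts the later double bond that yields arachidonic acid, had 471 to 646 CPM in young ND (median 581, n = 6) and from 628 to 1050 CPM in young HFD (median 704). In old mice it spanned 346 to 829 CPM on ND (median 559) and 384 to 932 CPM on HFD (median 587). In young mice 5 of 6 HFD values were above the highest ND value, and in old mice the diets overlapped almost wholly. The log2 fold change on HFD was 0.43 (SE 0.20, edgeR adjusted p = 0.201) in young and 0.11 (SE 0.20, edgeR adjusted p = 0.789) in old mice. In young mice it passed in a model of only the groups compared (0.46, edgeR adjusted p = 0.0178). An exact permutation test within batches gave a log2 difference of 0.42 with a two-sided exact p of 0.015, which is not adjusted and cannot be set beside the adjusted values. Without the 4 mice of highest macrophage markers it was 0.45 (edgeR adjusted p = 0.113). Age gave 0.02 on ND (95% interval -0.39 to 0.43) and -0.30 on HFD (95% interval -0.70 to 0.11).

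The ratio of Fads2 to Fads1 counts within a mouse, a measure added after the values were seen and given with no test, did not overlap between the diets at either age. Young ND mice had ratios of 0.833 to 1.10 with a median of 0.989, and young HFD mice had ratios of 1.15 to 1.59 with a median of 1.28. In old mice the ratio spanned 0.656 to 0.928 on ND (median 0.834) and 0.979 to 1.53 on HFD (median 1.25). No HFD mouse fell within the ND range of its own age. Of all pairs of the 13583 genes tested, 0.37% had a ratio that did not overlap between the diets, in the same direction, at both ages. For Fads2 it held with 181 of the other 13582 genes (1.33%) and for Fads1 with 37 (0.272%), so the pair is 1 of many and was picked for its values. The mean log2 ratio was higher on HFD by 0.38 in batch 1 and 0.44 in batch 2 among young mice, and by 0.68 and 0.49 among old mice. Within ND it was lower in old than in young mice by 0.26 on the log2 scale, with log2 differences of -0.29 in batch 1 and -0.24 in batch 2, and the ranges overlapped. Within HFD the difference with age was -0.09 on the log2 scale, 0.00048 in batch 1 and -0.19 in batch 2. The ratio has no length scaling, so its size says nothing of which mRNA is more abundant per molecule.

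**Figure D2:**
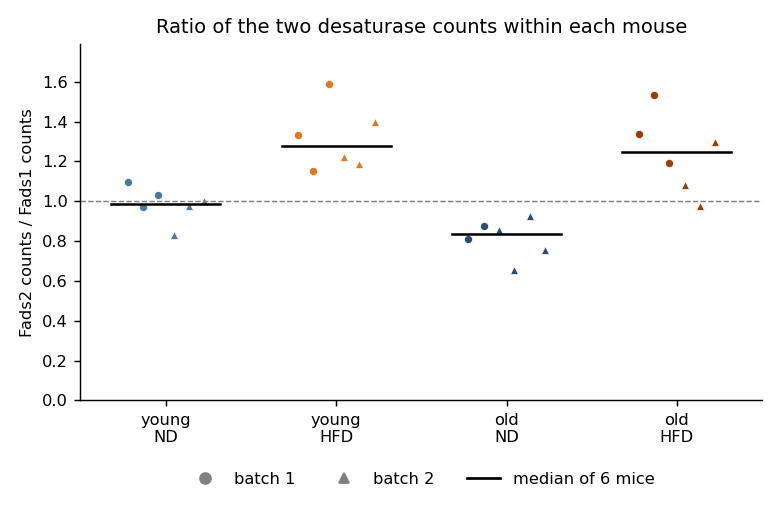
Fads2 counts divided by Fads1 counts in each mouse, on a linear axis from 0, by group. Circles are batch 1, triangles batch 2, lines the median of 6 mice and the dashed line a ratio of 1. The medians are 0.989 and 0.834 on ND and 1.28 and 1.25 on HFD.

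Elovl5 and Elovl2, the elongases of the polyunsaturated pathway, passed no test. Elovl5, which lengthens the products of Fads2, had medians of 750 CPM in young ND, 651 in old ND, 874 in young HFD and 778 in old HFD. The lowest and highest mice were 522 and 890 CPM in young ND, 253 and 917 in old ND, 509 and 1377 in young HFD, and 523 and 932 in old HFD, and the 4 ranges overlapped. Its log2 fold change on HFD was 0.28 (95% interval -0.22 to 0.78) in young and 0.23 (95% interval -0.28 to 0.73) in old mice.

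Elovl2, which makes the longer precursors of docosahexaenoic acid, had 603 to 797 CPM in young ND (median 758, n = 6) and from 271 to 754 in old ND (median 596). On HFD it spanned 567 to 969 CPM in young (median 740) and 494 to 911 CPM in old mice (median 698). In old ND, 3 of 6 mice were below every young ND mouse. Its log2 fold change with age on ND was -0.38 (95% interval -0.77 to -0.0016, edgeR adjusted p = 0.223). Old ND replicate 4, the mouse with the low hepatocyte markers, had the lowest level in its group of Elovl2, Elovl5, Elovl3, Fads1 and Fads2. Without that mouse the age difference of Elovl2 was -0.24 (edgeR adjusted p = 0.474), and without the 4 mice of highest macrophage markers it was -0.17 (edgeR adjusted p = 0.718). HFD gave Elovl2 log2 fold changes of 0.04 (95% interval -0.34 to 0.42) in young and 0.30 (95% interval -0.09 to 0.68) in old mice.

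Elovl3, an elongase of saturated and monounsaturated fatty acids that is known to be male-biased in mouse liver, had 410 to 955 CPM in young ND mice, with a median of 877, and 74.5 to 394 CPM in young HFD mice, with a median of 239. No young HFD mouse reached the lowest young ND mouse, which held for 3.06% of all genes tested. It fell by 1.89 on the log2 scale (SE 0.46, edgeR adjusted p = 0.0251), to 0.270 times the young ND level. The log2 fold change was -2.64 in batch 1 and -1.02 in batch 2 (edgeR adjusted p = 0.0568 and 0.591). In batch 1 the young ND mice had 875 to 955 CPM, and in batch 2 they had 880, 519 and 410 CPM. The call was lost without young ND replicate 1, 2, 3 or 4 or young HFD replicate 1, 3 or 5, at log2 fold changes of -1.89 to -1.69 and edgeR adjusted p of 0.0506 to 0.0749. Without the 4 mice of highest macrophage markers it was -1.91 (edgeR adjusted p = 0.0192).

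Age on ND passed the test for 2 of the 7 genes, Scd2 (higher) and Elovl3 (lower), where 8.5% of all genes were called, 7.26% higher and 1.24% lower. Elovl3 had 145 to 329 CPM in old ND (median 294), below every young ND mouse, as 1.72% of genes were. It fell by 1.58 on the log2 scale (SE 0.45, edgeR adjusted p = 0.0285), to 0.335 times the young ND level, with log2 fold changes of -1.45 in batch 1 and -1.37 in batch 2, neither of which passed (edgeR adjusted p = 0.487 and 0.205). The call was lost by edgeR without batch (-1.51, edgeR adjusted p = 0.0552) and by limma on log2(FPKM + 1) and log2(FPKM + 0.1) (-1.61 and -1.63, limma adjusted p = 0.0706 and 0.0585). It was lost too without the 4 mice of highest macrophage markers (log2 fold change -1.38, edgeR adjusted p = 0.226). It was also lost without young ND replicate 1, 2, 3 or 4 or old ND replicate 3 or 4, at -1.58 to -1.43 with edgeR adjusted p of 0.0521 to 0.0808. Between these groups 0 of 10 hepatocyte markers were called. In the same comparison 11 of 11 macrophage, 8 of 9 stellate and 6 of 9 endothelial markers were called higher. The part of cell make-up in the Elovl3 difference was not tested.

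Of the 18 mice outside young ND, 1 (old HFD replicate 5) had an Elovl3 level within the young ND range. Old HFD mice spanned 37.9 to 542 CPM (median 184), a spread of 84.9% of the mean (SD, n = 6) against 28.3% to 54.2% in the other groups, with the lowest 2 in batch 1 (37.9 and 76.7 CPM) and the highest in batch 2 (542 CPM). HFD in old mice gave a log2 fold change of -0.38 (95% interval -1.29 to 0.52), -1.64 in batch 1 and 0.44 in batch 2, so the direction differed between batches. Age on HFD gave -0.07 (95% interval -0.97 to 0.83). The diet effect in old minus that in young mice was 1.51 (SE 0.62, 95% interval 0.23 to 2.78), with an unadjusted p of 0.0224 and an edgeR adjusted p of 0.531, and it was positive in both batches.

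Elovl1, which makes very long saturated fatty acids for sphingolipids in many tissues, had the narrowest range of the 7 over all mice. Its level spanned 31.9 to 44.7 CPM in young ND (median 37.2) and 28.4 to 45.3 in old ND (median 37.6). On HFD it spanned 27.2 to 39.6 CPM in young (median 32.1) and 18.8 to 38.9 CPM in old mice (median 29.6), and every pair of groups overlapped. The highest of the 24 mice had 2.41 times the level of the lowest, against 25.2 times for Elovl3 and 58.7 times for Scd2. HFD gave log2 fold changes of -0.20 (95% interval -0.52 to 0.12) in young and -0.34 (95% interval -0.66 to -0.01, edgeR adjusted p = 0.207) in old mice. Elovl1 shares 53 bases with Cdc20 on the other strand, and strand in the counting is not stated.

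Scd2, which inserts a double bond into stearic and palmitic acid, was 0.729 to 2.65 CPM in young ND (median 2.00), from 11 to 51 counts a mouse, and 3.37 to 42.8 CPM in old ND (median 12.7), from 55 to 788 counts. Every old ND mouse lay above every young ND mouse, as 2.08% of genes did. It rose by 2.81 on the log2 scale with age on ND (SE 0.50, edgeR adjusted p = 0.00318), a 7.02-fold rise, with log2 fold changes of 2.34 in batch 1 and 3.13 in batch 2, neither of which passed on its own (edgeR adjusted p = 0.203 and 0.205). Limma on log2(FPKM + 1), a scale on which changes of such a low gene are understated, gave 0.75 (limma adjusted p = 0.0380). The call held in 24 of 24 fits that left out 1 mouse, at 2.25 to 3.01. In young HFD it was 1.24 to 4.67 CPM (median 2.75) and in old HFD 1.84 to 9.93 CPM (median 6.52). Age on HFD gave a log2 fold change of 1.20 (95% interval 0.22 to 2.19, edgeR adjusted p = 0.156), with 4 of 6 old HFD mice above the highest young HFD mouse, and none of the 7 genes passed that test, where 2.24% of genes did, 1.82% higher and 0.42% lower. HFD gave 0.46 in young and -1.15 in old mice (edgeR adjusted p = 0.657 and 0.153), and the difference of these effects was -1.61 (unadjusted p = 0.0266, edgeR adjusted p = 0.531).

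Scd2 was set beside the macrophage sum in each mouse, with no correlation computed. In the mouse of highest Scd2, old ND replicate 3 with 42.8 CPM, the macrophage sum was 958 CPM. Old ND replicates 2 and 4 had nearly equal levels of Scd2, and their macrophage sums were 109 and 1448 CPM. The 3 young ND mice of batch 1 had macrophage sums of 1.95 to 5.10 CPM and 0.729 to 2.41 CPM of Scd2. Other cell types varied too. Stellate and endothelial sums were 6.34 to 17.7 and 18.1 to 43.0 CPM in these 3 mice, and 211 and 250 CPM in old ND replicate 3. Without the 4 mice of highest macrophage markers the age difference on ND was 2.16 (edgeR adjusted p = 0.0377), in a fit that also lacks the mouse of highest Scd2. The part of macrophages or other cells in the difference was not tested, and in such bulk samples a change in the number of cells and a change in RNA per cell cannot be told apart. How the counting treated reads in sequence shared with Scd1, whose level was 1157 to 22289 CPM, is not stated. Their part in the Scd2 level was not tested. Scd1 itself had a log2 fold change of 0.07 with age on ND (edgeR adjusted p = 0.941).

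**Figure D3:**
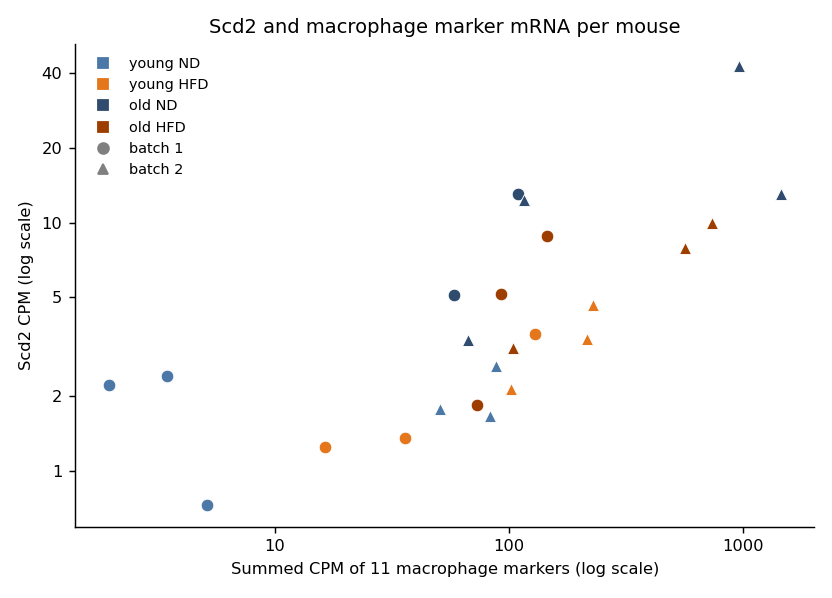
Scd2 level against the summed level of 11 macrophage markers in each mouse, both in CPM on log axes. Colours give the group, circles batch 1 and triangles batch 2. Old ND replicate 3 is at the top with 42.8 CPM of Scd2 and a macrophage sum of 958 CPM, and the 3 young ND mice at the left have macrophage sums of 1.95 to 5.10 CPM.

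**Figure D4:**
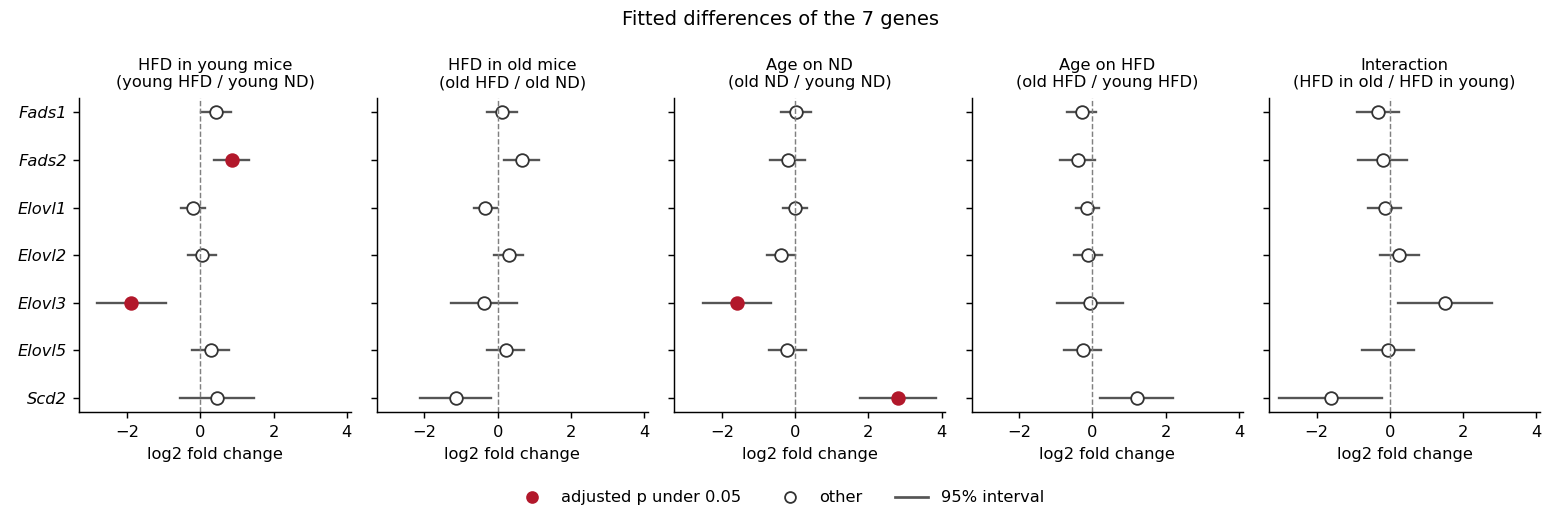
Fitted log2 fold change of each gene in the 5 comparisons, with 95% intervals from edgeR's quasi-likelihood fit. Filled points have an adjusted p under 0.05 and are Fads2 and Elovl3 for HFD in young mice and Elovl3 and Scd2 for age on ND.

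The test of whether the HFD response differed with age passed for none of the 7 genes, and for 0% of all genes tested by edgeR. At an unadjusted p under 0.05 it held 1247 of 13583 genes, 2 of the 7 among them (Elovl3 and Scd2), and DESeq2 called 4 genes. With no filter on low counts, in a fit of 32336 genes, edgeR called 587 genes. Elovl3 (1.47, edgeR adjusted p = 2.9e-07) and Scd2 (-1.63, edgeR adjusted p = 0.0005) were among them. Both genes also passed the filter, and with it their log2 fold changes were 1.51 and -1.61. No other alternative called any of the 7 genes in this comparison, and the reason for the lower adjusted p was not tested. Over the 7 genes the median log2 fold change was 0.28 for HFD in young mice, 0.11 for HFD in old mice, -0.20 for age on ND and -0.14 for age on HFD, where the median of all genes tested was between -0.01 and 0.01. The comparisons share groups of mice, so their medians are not independent.

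Levels were also compared from mouse to mouse within a group and batch. After the mean of each group in each batch was removed from log2 CPM, 8 of 21 pairs of the 7 genes had an adjusted p under 0.05 for Pearson's r and 7 of 21 for Spearman's rho (permutation test within group and batch, 100000 resamples, n = 24 mice, adjusted over 21 pairs). Fads1 and Fads2 had the highest, with r = 0.92 (permutation p = 1e-05, the smallest the resamples can give, adjusted p = 0.00021) and rho = 0.91 (permutation p = 1e-05, adjusted p = 0.00021). It was 0.90 in batch 1 and 0.95 in batch 2, and 0.89 without the 2 mice farthest from the median of Fads1. Elovl2 and Elovl5 had r = 0.87 (permutation p = 0.00153, adjusted p = 0.0107) and rho = 0.67 (permutation p = 0.01, adjusted p = 0.0324), with r = 0.60 in batch 1, 0.92 in batch 2 and 0.74 without the 2 farthest mice. The 6 pairs among Fads1, Fads2, Elovl2 and Elovl5 ran from 0.76 to 0.92, from 0.46 to 0.90 in batch 1, from 0.84 to 0.95 in batch 2 and from 0.55 to 0.89 without the 2 farthest mice. Over all pairs of the 13583 genes tested, 1.03% had an r of at least 0.76 and 7% an r of at least 0.55 by the same measure. Fads1 reached 0.76 with 198 of the other 13582 genes, Fads2 with 96, Elovl2 with 90 and Elovl5 with 57, so such values are not particular to these 4 genes.

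The remaining 2 pairs past the threshold for r involved Elovl1, with Elovl5 (r = 0.55, permutation p = 0.00518, adjusted p = 0.0155) and with Scd2 (r = 0.60, permutation p = 0.0125, adjusted p = 0.0329). The pair of Elovl1 and Scd2 did not pass for rho (0.57, permutation p = 0.0309, adjusted p = 0.081). The relation of Elovl1 and Elovl5 was 0.48 in batch 1, 0.69 in batch 2 and 0.54 without the 2 farthest mice, and that of Elovl1 and Scd2 was 0.60, 0.62 and 0.49. Elovl3 passed with none of the other 6, at r of -0.36 to -0.05. In batch 1 its r was negative with all 6 (-0.74 to -0.30), and in batch 2 it was between -0.14 and 0.14. Values of 1 mouse share a library and its depth.

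**Figure D5:**
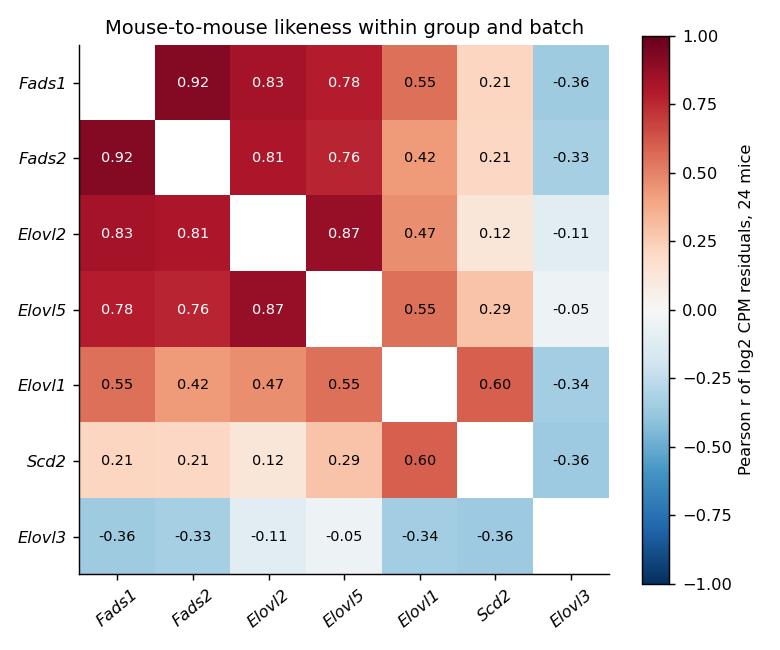
Pearson's r between each pair of the 7 genes over 24 mice, from log2 CPM after the mean of each group in each batch was removed. Colour runs from -1 (blue) to 1 (red). The block of Fads1, Fads2, Elovl2 and Elovl5 holds values of 0.76 to 0.92, and the row of Elovl3 holds values of -0.36 to -0.05.

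The genes most like each of the 7 over 24 mice, by Pearson's r of log2 CPM with batch removed and group kept, included several of the 7 themselves. Fads1 was near to Fgfrl1 (0.88) and Fads2 (0.87). Fads2 was nearest to Hamp2 (0.90), Kcnk10 (0.89) and Fads1, and Hamp2, a hepcidin gene, had medians of 5.55 CPM in young ND, 5.40 in old ND, 27.1 in young HFD and 18.9 in old HFD. Elovl2 was nearest to Marc1 (0.88), Elovl5 (0.86) and Serpinf1 (0.85), and Elovl5 to Elovl2, Slc17a4 (0.86) and Pgrmc2 (0.84). Elovl3 was nearest to Slc22a28 (0.90), Pitx3 (0.90) and Fpgs (0.87). Pitx3 shares 10 bases with the end of Elovl3 on the other strand and had a median of 10.8 CPM in young ND and 0.309 to 1.27 CPM in the other groups, so reads of Elovl3 and Pitx3 may not be separable here. Elovl1 was nearest to Plxna2 (0.84), Grina (0.80) and Ppp1r13b (0.80), and Scd2 to Sp140 (0.87), Slc11a1 (0.84) and Fpr1 (0.84), of which Slc11a1 and Fpr1 are genes of macrophages and neutrophils. These genes were picked as the highest of 13583 and the values are descriptions.

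Other genes of the elongation cycle and of desaturation were listed, and 14 of 17 were tested. HFD in young mice called 1 of these 14, where 3.5% of all genes were called. It was Fads3, another gene of the Fads family, which was 3.71 to 6.69 CPM in young ND and 5.42 to 20.8 CPM in young HFD (log2 fold change 1.51, edgeR adjusted p = 0.0287). Its value in old mice was 0.24 (edgeR adjusted p = 0.773). Cyb5b, a cytochrome b5 that can pass electrons to desaturases, had values of -0.45 to -0.35 in the 4 comparisons of groups and Scd3, a rarer desaturase at a median of 0.589 CPM in young ND, had -2.52 for HFD in old mice (edgeR adjusted p = 0.053), and neither was called. Age on ND called 1 of 14, beside 8.5% of all genes. It was Hacd4, a dehydratase of the elongation cycle, at 0 to 0.856 CPM in young ND and 0.572 to 8.50 CPM in old ND (log2 fold change 2.71, edgeR adjusted p = 0.0194). The enzymes that act with every elongase in the later steps of the cycle, Hsd17b12, Tecr, Hacd2 and Hacd3, were called in no comparison. Elovl6 and Scd1, which lengthen and desaturate the products of fatty acid synthesis, had log2 fold changes on HFD of -0.52 and -1.05 in young and -0.78 and -1.33 in old mice (edgeR adjusted p = 0.245, 0.134, 0.080 and 0.071). Over the 14 genes the median was -0.09 for HFD in young and -0.14 in old mice, where the median of all genes was 0.01 and -0.01.

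Peroxisomal genes that transport and shorten very long fatty acids, the last step to docosahexaenoic acid, were called in 2 of 8 cases for age on ND, both lower, beside 1.24% of all genes called lower and 8.5% in either direction. The genes called were Abcd3, a peroxisomal transporter, at -0.61 (edgeR adjusted p = 0.0446), and Scp2, a thiolase and lipid carrier, at -0.54 (edgeR adjusted p = 0.0493). The median of the 8 genes was -0.49 for age on ND, and 7 of 8 were negative, beside a median of 0.01 over all genes. For HFD none of the 8 was called, with medians of 0.18 in young and 0.22 in old mice.

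Of 11 tested genes that activate fatty acids or load them onto phospholipids, age on ND called 4, beside 8.5% of all genes. Acsl1, a main acyl-CoA synthetase of liver, fell by 0.77 on the log2 scale, and Agpat2 fell by 0.55 (edgeR adjusted p = 0.0160 and 0.0161). Lpcat1 rose by 2.06 and Lpcat2 by 3.52 (edgeR adjusted p = 0.0323 and 0.0156), and Lpcat2 was 0 to 0.635 CPM in young ND and 0.245 to 8.01 CPM in old ND. Macrophage, stellate and endothelial markers moved the same way as Lpcat1, Lpcat2 and Hacd4 in this comparison, and their part in these differences was not tested. Without the 4 mice of highest macrophage markers none of the 7 genes of these lists named for age on ND (Hacd4, Abcd3, Scp2, Acsl1, Agpat2, Lpcat1 and Lpcat2) was called. Hacd4 had 1.72, Lpcat1 1.12 and Lpcat2 1.95 in that fit (edgeR adjusted p = 0.33, 0.40 and 0.34). Abcd3 had -0.39, Scp2 -0.37, Acsl1 -0.53 and Agpat2 -0.49 (edgeR adjusted p = 0.118, 0.106, 0.0728 and 0.157). Age on HFD called 1 of 11, beside 2.24% of all genes, and this was Agpat3, at -0.46 (edgeR adjusted p = 0.0371) and at -0.42 without those mice (edgeR adjusted p = 0.0781), and HFD called none at either age.

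Of 7 fatty acid synthesis genes, HFD in old mice called 1, beside 3.01% of all genes. It was Acaca, the first committed enzyme, at -0.96 (edgeR adjusted p = 0.0231), with 80.9 to 163 CPM on ND and 31.0 to 107 CPM on HFD, and at -0.99 without the 4 mice of highest macrophage markers (edgeR adjusted p = 0.0545). In both ages 6 of 7 had negative values on HFD, with medians of -0.76 in young and -0.99 in old mice. Acly, Acacb and Me1, which supply acetyl-CoA, malonyl-CoA and NADPH, had -0.85, -1.05 and -1.04 in young mice and -0.99, -1.08 and -1.06 in old mice, with edgeR adjusted p of 0.0568 to 0.0884. The median of the 7 elongases and desaturases was 0.28 and 0.11 in the same comparisons. Among 14 regulators of these genes, HFD in young mice called 1, beside 3.5% of all genes. It was Ppard, a nuclear receptor for fatty acids, at -1.91 (edgeR adjusted p = 0.0264), from 4.28 to 27.2 CPM on ND to 2.77 to 5.04 CPM on HFD. Srebf1, which encodes the SREBP factor known to act on Fads1 and Fads2, had log2 fold changes on HFD of 0.38 in young and 0.52 in old mice (edgeR adjusted p = 0.393 and 0.208). Ppara, the fatty acid receptor of hepatocytes, had 0.25 and -0.05 (edgeR adjusted p = 0.439 and 0.914). Insig2, which retains SREBP in the endoplasmic reticulum, had 0.06 and 0.47, and Pparg, a lipid-storage receptor, had -0.51 and 0.03, and neither was called.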

How the data were processed

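RNA-seq of isolated hepatocytes from 24 male mice was analysed, with groups, replicate numbers and batches taken from the sample labels. Raw counts of reads per gene were deposited by the authors (FastQC 0.11.8, STAR 2.7.3a on mm10 and HTSeq 0.11.2, per the submitters' processing notes) and FPKM values, which per the file headers were adjusted between batches with ComBat. Strand and duplicate handling are not given in the sources used here, and 0 columns lacked a sample. Total counts of 9200332 to 22185069 per mouse set the precision of low genes such as Scd2. Without molecular identifiers, the true error of a count exceeds its counting error.

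Genes were tested with edgeR 4.0.16 (R 4.3.3; TMM, filterByExpr by group, 1 model of group and batch, quasi-likelihood F test, Benjamini-Hochberg within each comparison at 0.05), after the code was checked on simulated counts. FPKM served for levels per length of the whole gene and for the limma alternatives. Intervals are 95% and standard errors come from the F statistic. CPM uses TMM-scaled library sizes, and log2 CPM a prior count of 2. Mouse-to-mouse correlations were tested by permutation within group and batch. Positions come from GENCODE M21 (GRCm38, the mm10 build) and promoters from RefSeq (GRCm38.p6). Alternatives were DESeq2 1.42.0, no batch, RLE normalization, no filter, only the groups compared, a replicate block, limma 3.58.1 on log2(FPKM + 1) and log2(FPKM + 0.1), each batch alone, counts thinned to the smallest total, exact permutation within batches, each mouse left out and, added later, the 4 mice of highest macrophage markers left out.

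The 7 genes, the gene lists and the markers were chosen with earlier results of these data known. Beyond the 7, the text names up to 4 genes per list with the smallest adjusted p in any comparison and the 3 genes of highest r for each of the 7. Elovl6, Scd1, Srebf1, Agpat3, Hsd17b12, Tecr, Hacd2 and Hacd3 were named after their values were seen. Some genes that this rule would name are not reported here. Nothing in the sources says whether mice of a group shared a cage or litter, and p-values measure the spread between these mice.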

Additional observations from a re-analysis of the deposited data

Results flagged for a closer look

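Levels of the 7 genes were screened for a mouse far from the other 5 of its group, by the gap to the nearest mouse as a share of the group's range on the log2 scale, in 28 group and gene combinations. Chance alone marks about 1 in 20 such groups. Elovl5 was marked in old ND, where replicate 4 had 253 CPM and the others 581 to 917 CPM. That mouse also had the lowest hepatocyte marker sum (44492 CPM) and the highest macrophage sum (1448 CPM) of all 24. Scd2 was marked in young ND, where replicate 3 had 0.729 CPM and the others 1.66 to 2.65 CPM, a level that rests on 11 counts.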

How the results depend on the processing

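Counts of the 7 genes called moved as follows. For HFD in young mice, 1 was called by edgeR without batch (Elovl3, with Fads2 lost), 3 with only the groups compared (Fads1 added at 0.46, edgeR adjusted p = 0.0178), 0 in batch 1 alone, 0 in batch 2 alone, and 0 to 2 when 1 mouse was left out. For HFD in old mice, 1 was called by DESeq2 (Fads2, adjusted p = 0.0382), 2 with no filter on low counts (Fads2 and Scd2), and 0 to 1 when 1 mouse was left out (1 without old ND replicate 5). For age on ND, 1 was called by edgeR without batch, by limma on log2(FPKM + 1), by limma on log2(FPKM + 0.1) and without the 4 mice of highest macrophage markers (Scd2 each time, with Elovl3 lost), 0 in each batch alone, and 1 to 2 when 1 mouse was left out. With no filter, 1 was called for age on HFD (Scd2) and 2 for the interaction (Elovl3 and Scd2). A batch alone holds 2 to 4 mice a group. The cause of the other changes was not tested.

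Over all genes, edgeR called 475, 409, 1155, 304 and 0 for HFD in young mice, HFD in old mice, age on ND, age on HFD and the interaction. DESeq2 called 1255, 1123, 1676, 859 and 4, and no filter gave 1473, 1108, 2053, 1235 and 587. Models without batch called 174, 266, 628, 116 and 0, and models of only the groups compared 2302, 15, 1331 and 48. Batch 1 alone gave 130, 15, 93, 9 and 0 and batch 2 alone 9, 16, 2, 0 and 0. Limma on log2(FPKM + 1) called 248, 319, 168, 146 and 0, and on log2(FPKM + 0.1) 292, 361, 411, 158 and 0. Thinned counts gave 304, 470, 863, 316 and 0. Without the 4 mice of highest macrophage markers 1074, 401, 94, 94 and 0 were called. Leaving out 1 mouse gave 146 to 998, 84 to 823, 586 to 1592, 40 to 813 and 0 to 1.

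Some differences that were not called changed sign. Fads1 for age on ND was -0.0035 with the replicate block, -0.0101 and -0.0114 in the limma fits, -0.10 in batch 2 and -0.042 in the permutation test, and Fads1 for HFD in old mice was -0.064 in batch 2. Elovl1 for age on ND was 0.023 by DESeq2, 0.00357 without batch, 0.022 with RLE normalization, 0.025 in only the groups compared, 0.12 in batch 2 and 0.017 in thinned counts. In batch 2, Elovl2 for HFD in young mice was -0.019, Elovl3 for HFD in old mice 0.44 (-0.38 in the report), Elovl3 for age on HFD 0.094 (0.0025 without the 4 mice) and the Elovl5 interaction 0.019 (0.059 with the replicate block). Leaving out 1 mouse gave ranges across 0 for Fads1 in HFD in old mice (-0.034 to 0.23) and age on ND (-0.11 to 0.14), Elovl1 in age on ND (-0.062 to 0.072), Elovl2 in HFD in young mice (-0.037 to 0.10), Elovl3 in age on HFD (-0.55 to 0.15) and the Elovl5 interaction (-0.22 to 0.11). Of 441 gene results under alternatives other than leaving out a mouse, 402 kept direction and side of the threshold (for the exact permutation test, an unadjusted p of 0.05), and of 840 that left out a mouse 787 did.

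The replicate numbers did not pair the mice. Deviations of same-numbered mice from group means had a mean correlation of 0.182 (lowest -0.320), and -0.0467 after batch means were removed. With the replicate block in place of batch, 2, 0, 2, 0 and 0 of the 7 genes were called, the same counts as in the report, and 283, 445, 1350, 131 and 1 of all genes. Depth limits Scd2, which rests on 11 to 51 counts a young ND mouse.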
